A study of Mus musculus with 4 samples.

Results

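The library labelled AdNTF3-Tg was compared with the WT library labelled WT_2 over all genes, and the other WT library, WT_1, was set beside both. Members were taken by label: 2 of the 4 libraries of the series form the comparison. AdNTF3-Tg came from C57BL/6 mice that carry a transgene with the coding sequence of NT-3 (gene *Ntf3*) under the promoter of adiponectin, a gene of fat cells, so that the transgene is driven in adipocytes and not by a promoter of ganglion cells. WT_1 and WT_2 came from WT mice of the same strain without the transgene. The remaining library came from TRKC+/- mice, heterozygous for loss of the NT-3 receptor TRKC. All 4 libraries were of sympathetic ganglia (SG) at thoracic levels T1-T4 taken from mice aged 12 weeks after a cold challenge of 1 day (5 °C), with the ganglia of 6 mice pooled into each library. With 1 library per label no p-value was computed, and the only check between pools of 1 genotype is WT_1 beside WT_2. The WT labels carry a number and no cohort, and WT_2 was taken as the control of AdNTF3-Tg from the name of its deposited table. The question was which transcripts of the ganglion differ when fat cells make more NT-3, and which of those differences also separate the 2 WT libraries.

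SG hold noradrenergic neurons, whose axons reach brown and white fat and release noradrenaline there in the cold, wrapped by satellite glia and mixed with Schwann cells, fibroblasts, vessels and macrophages. NT-3 is a neurotrophin, a secreted growth factor of the family of BDNF. It binds the receptor tyrosine kinase TRKC (gene *Ntrk3*), and the signal runs through adaptors to the ERK and AKT kinases and to transcription.

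The reads counted on genes summed to between 8665955 and 8894985 per library, with 8806054 in AdNTF3-Tg and 8847743 in WT_2. The 10 genes with most reads held 4.12% of them in AdNTF3-Tg and 4.24% in WT_2. Of 17667 genes listed in at least 1 library, 15275 were listed in all 4, and the counts below are over these. Levels are FPKM, a gene's reads scaled to its length and to the reads of the library. A fold change is the log2 ratio of FPKM after adding 0.1 to each value, which understates the change of low genes, and the cutoff was an absolute log2 ratio of 0.5. Beside it stands the exact Clopper-Pearson 95% interval of the log2 ratio of a gene's reads per library total, called the counting interval, which covers counting error only and compares 2 libraries, not 2 genotypes. The interval comes from reads and the ratio from FPKM, so for low or short genes the ratio can lie at or just past an end of it. A count of 0 in AdNTF3-Tg allows up to 3 reads, or 0.341 CPM (reads scaled to library size).

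Against WT_2, 948 genes were higher in AdNTF3-Tg past the cutoff (6.21% of the 15275) and 1085 were lower (7.1%), together 13.3%. The 2 WT libraries differed from each other past the same cutoff for a like share, 13.4%, with 1178 genes higher in WT_1 than in WT_2 (7.71%) and 866 lower (5.67%). With the counting interval on 1 side of 0 as well, 365 genes were higher in AdNTF3-Tg (2.39%) and 407 lower (2.66%), together 5.05%. Most differences lay among low genes: in the quintile of genes with the lowest mean, up to 1.37 FPKM, 20.6% were higher and 21.9% lower, while in the top quintile, from 27.7 FPKM, 0.131% were higher and 0.556% lower. Of the 3851 genes with at least 500 reads in each library, 1 was past the cutoff upward, *Gda*, and 2 downward, *Lyz2* and *Cd74*.

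The differences fell into kinds by where WT_1 lay. Of the 948 higher genes, 489 (51.6%) were also past the cutoff in WT_1 against WT_2, so that the same gene separated the WT libraries in the same direction, and 324 (34.2%) were past the cutoff against WT_1 too, so that AdNTF3-Tg lay above both WT libraries; 51 genes were in both kinds and 186 in neither. Of the 1085 lower genes the order was the opposite, with 385 (35.5%) that also separated the WT libraries and 547 (50.4%) below both, 63 in both kinds and 216 in neither. As shares of all 15275 genes, those beyond both WT libraries were 2.12% above and 3.58% below (5.7% together), and those with WT_1 on the same side of WT_2 were 3.2% above and 2.52% below (5.72% together). Both counting intervals excluded 0 for 75 genes above both WT libraries (0.491%) and 120 below both (0.786%). Both comparisons use WT_2, so a low or high count in WT_2 alone moves a gene in both.

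**Figure D1:**
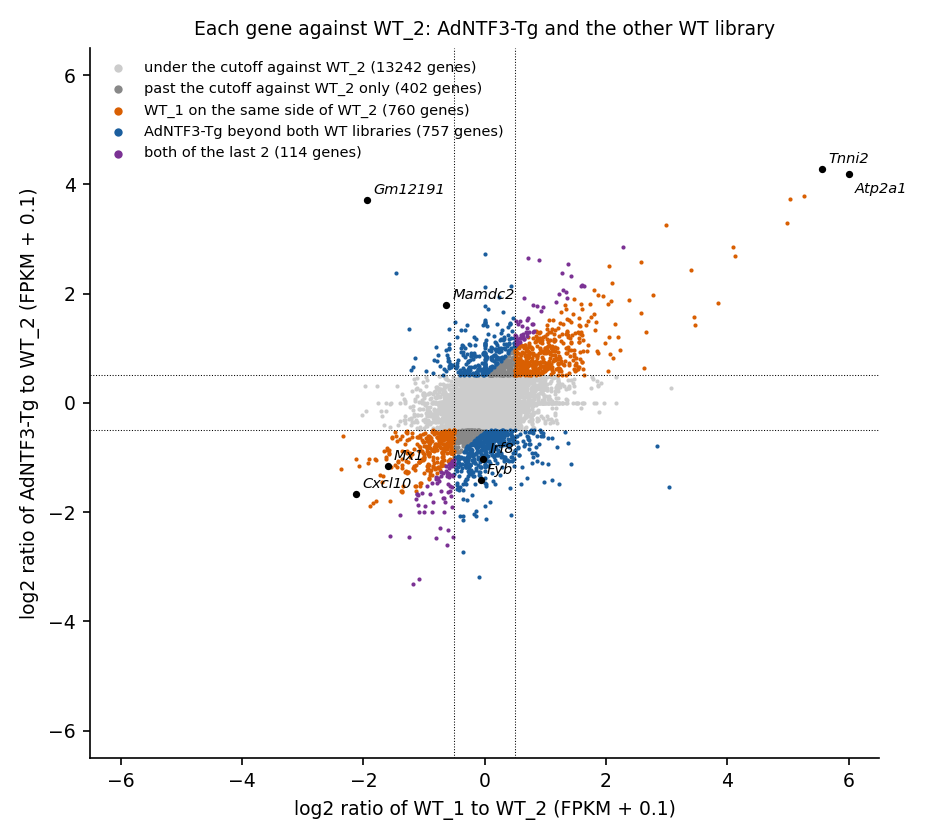
Log2 ratio of AdNTF3-Tg to WT_2 (vertical) against log2 ratio of WT_1 to WT_2 (horizontal) for the 15275 genes listed in all 4 libraries, both of FPKM + 0.1, with 1 point per gene and dotted lines at the cutoff of 0.5 either way. Both axes share WT_2. Orange genes, 760 of them, lie on the side of WT_1 and hold the muscle genes *Tnni2* and *Atp2a1* at the upper right and *Mx1* and *Cxcl10* at the lower left, while the 757 blue genes, among them *Mamdc2*, *Irf8* and *Fyb*, lie past the cutoff against each WT library and not with WT_1 against WT_2.

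*Ntf3*, the gene of NT-3, was not listed in AdNTF3-Tg, WT_1 or WT_2, and had 2 reads in TRKC+/-. A count of 0 allows up to 3 reads, so a transcript of the transgene was not detectable in these ganglia at this depth. Its receptor gene *Ntrk3* was low and level, with 76 reads (2.32 FPKM) in AdNTF3-Tg, 83 (2.52 FPKM) in WT_2, 78 (2.45 FPKM) in WT_1 and 91 (2.72 FPKM) in TRKC+/-. Its log2 ratio of AdNTF3-Tg to WT_2 was -0.11, with a counting interval from -0.59 to 0.35. TRKC+/- had the most *Ntrk3* reads of all libraries, whereas the study reports lower expression of this gene in ganglia of such mice. The genotype of each library is taken from its label. *Ngfr*, the shared low-affinity neurotrophin receptor p75, had 340 FPKM in AdNTF3-Tg, inside the range from 316 in WT_1 to 360 in WT_2. Of 12 neurotrophin and receptor genes, 1 was past the cutoff, with an interval that spanned 0, beside 13.3% of all genes.

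The noradrenergic identity of the ganglia was marked in every library and differed little. *Th*, the rate-limiting enzyme of noradrenaline synthesis, had 2576 FPKM in AdNTF3-Tg, 2631 in WT_2 and 2680 in WT_1. *Dbh*, the enzyme that makes noradrenaline from dopamine, had 2152 FPKM in AdNTF3-Tg, 2100 in WT_2 and 2154 in WT_1, and *Slc6a2*, the noradrenaline transporter, had 716, 698 and 667 FPKM in the same order. *Npy*, the cotransmitter of these neurons, was lowest in AdNTF3-Tg, at 2181 FPKM against 2501 in WT_2 and 2733 in WT_1, a log2 ratio to WT_2 of -0.20 (interval -0.24 to -0.16). Of 17 noradrenergic identity genes 1 was past the cutoff, with an interval that spanned 0, and of 16 pan-neuronal genes 0 were, beside 13.3% of all genes in either direction. The median log2 ratio was 0.01 for each of these lists, beside 0.00 over all genes.

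Most of the 44 gene lists had a median near that of all genes. Those with an absolute median of at least 0.19 against WT_2 were antigen presentation (-0.51), chemokines and NF-kappaB (-0.41), interferon-stimulated genes (-0.38), macrophage (-0.20) and cytosolic ribosomal proteins (-0.19) below, and skeletal muscle (0.46), a list of 5 mast cell and granulocyte genes (0.54) and the genes that the study's text names (0.57) above. These lists were compared by counts and medians, and no test set one list against another. Ganglia are mixed tissue and each library is a pool, so fewer cells of a type and less RNA per cell cannot be told apart in any of the values below.

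**Figure D2:**
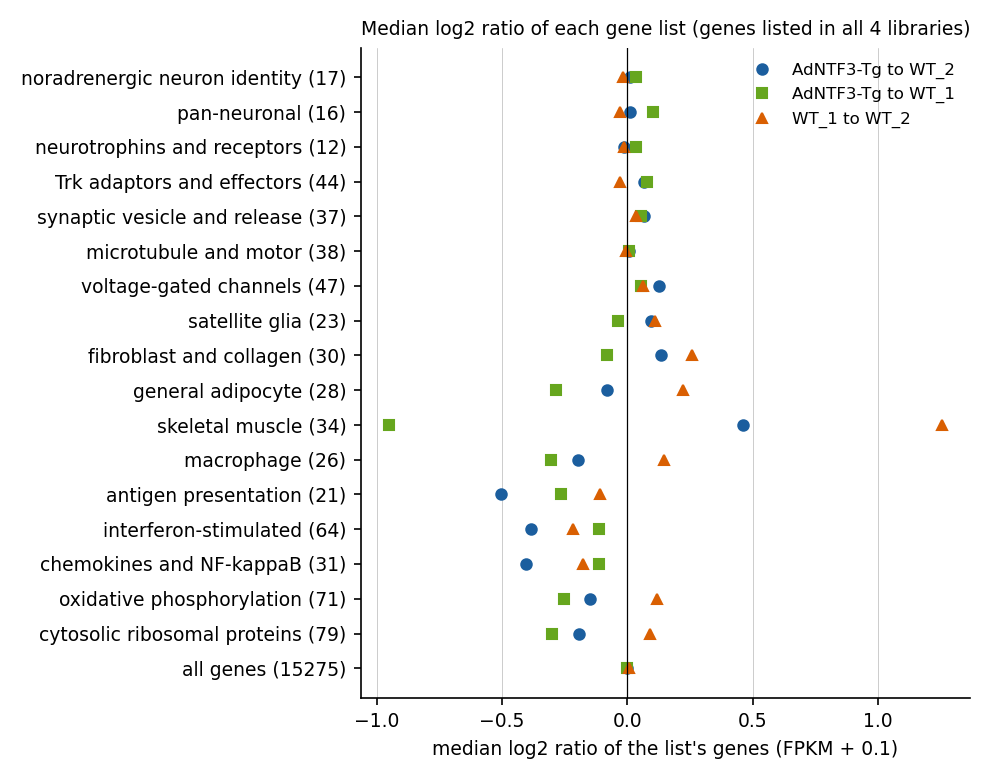
Median log2 ratio (FPKM + 0.1) over the genes of each list, with the number of genes listed in all 4 libraries in brackets; circles are AdNTF3-Tg to WT_2, squares AdNTF3-Tg to WT_1 and triangles WT_1 to WT_2, and all pairs share libraries. The skeletal muscle list lies at 0.46 to WT_2 and at -0.95 to WT_1, on opposite sides of 0, while the antigen presentation list lies below 0 to both (-0.51 and -0.26).

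Among the antigen presentation genes below both WT libraries were MHC class II genes, which present peptides to CD4 T cells and are made by dendritic cells, macrophages and B cells. *Cd74*, the invariant chain that escorts class II molecules, had 70.4 FPKM (745 reads) in AdNTF3-Tg, 99.96 FPKM (1077 reads) in WT_2, 112 FPKM (1200 reads) in WT_1 and 111 FPKM (1199 reads) in TRKC+/-. *H2-Eb1*, a class II beta chain, had 22.9 FPKM (323 reads) in AdNTF3-Tg, 37.5 in WT_2, 39.3 in WT_1 and 34.8 in TRKC+/-. For both genes AdNTF3-Tg was the lowest of the 4 libraries. Of the other 3, WT_2 was the lowest for *Cd74* and TRKC+/- for *H2-Eb1*. The log2 ratio to WT_2 was -0.51 for *Cd74* (interval -0.66 to -0.39) and -0.71 for *H2-Eb1* (-0.91 to -0.51), and the ratio to WT_1 was -0.67 and -0.78.

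For the other class II chains and the peptide loader AdNTF3-Tg was again the lowest of the 4 libraries, with TRKC+/- next. *H2-Aa*, the alpha chain, had 39.9 FPKM in AdNTF3-Tg, 62.4 in WT_2, 65.3 in WT_1 and 51.1 in TRKC+/-, a log2 ratio to WT_2 of -0.64 (interval -0.84 to -0.45). *H2-Ab1*, the beta chain that pairs with it, had 26.95 FPKM in AdNTF3-Tg, 40.9 in WT_2, 42.8 in WT_1 and 37.9 in TRKC+/-, with a ratio of -0.60 (-0.83 to -0.38). *H2-DMa*, which loads peptide onto class II molecules, had 6.78 FPKM in AdNTF3-Tg, 10.8 in WT_2, 11.2 in WT_1 and 9.20 in TRKC+/-, with a ratio of -0.66 (-1.06 to -0.29). Between the WT libraries these 3 genes differed by 0.05 to 0.07 on the log2 scale, and each of those intervals spanned 0.

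Among the 21 antigen presentation genes, 11 were lower past the cutoff and 0 higher, beside 7.1% lower over all genes, and 9 of the 11 had an interval below 0. The 5 class II genes above were the ones below both WT libraries, each with both intervals below 0, beside 0.786% of all genes. AdNTF3-Tg was the lowest of the 3 libraries for 18 of the 21, beside 34% of all genes, and the ratio to WT_2 was below 0 for all 21. Class I genes varied where WT_1 was set beside them. *B2m*, the light chain of class I molecules, had 443 FPKM in AdNTF3-Tg against 564 in WT_2, and 456 in WT_1. *H2-K1*, a class I heavy chain whose reads are shared in part with its paralogs, had 197 FPKM in AdNTF3-Tg, 250 in WT_2 and 196 in WT_1. For these 2 genes WT_2 was the high library, and AdNTF3-Tg and WT_1 lay together, whereas *H2-Q4*, another class I gene with shared reads, had 570 reads in AdNTF3-Tg, 766 in WT_2 and 761 in WT_1. *Psmb8*, a subunit of the immunoproteasome that cuts peptides for class I, had 29.7 FPKM in AdNTF3-Tg, 49.0 in WT_2 and 39.6 in WT_1, with a ratio of -0.72 to WT_2 and -0.41 to WT_1.

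Promoter letters of 2 class II genes are shown because these genes share a control element, the Y box, to which the factor NF-Y binds. The 250 bases before the start in the RefSeq annotation on GRCm38.p6 are given 5' to 3' on the gene's strand, with the Y box core CTGATTGG, searched on both strands, in capitals. For *H2-Eb1* (chr17:34305617-34305866, plus strand) it lies 62 bases before the start, and for *H2-Aa* (chr17:34287824-34288073, minus strand) 51 bases before it.
H2-Eb1: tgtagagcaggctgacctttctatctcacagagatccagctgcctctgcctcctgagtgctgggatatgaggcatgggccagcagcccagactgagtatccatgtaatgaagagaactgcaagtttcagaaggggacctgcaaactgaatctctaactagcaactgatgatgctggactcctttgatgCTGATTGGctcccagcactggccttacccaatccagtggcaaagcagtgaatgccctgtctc
H2-Aa: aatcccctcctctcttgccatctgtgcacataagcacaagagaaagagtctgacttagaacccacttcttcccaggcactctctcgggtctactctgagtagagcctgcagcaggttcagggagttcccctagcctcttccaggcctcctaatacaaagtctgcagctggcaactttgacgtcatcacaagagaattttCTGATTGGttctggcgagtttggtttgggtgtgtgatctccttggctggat
The core was in the promoter window (250 bases before to 50 after the start) of 8 of 16 antigen presentation genes with a window in the table (50%), against 6.42% of the 12035 genes with one. A match is a description of the letters and not of binding.

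Macrophage markers were lower as a list, by little for some members. Over 26 macrophage genes the summed reads were 4529 in AdNTF3-Tg, 5290 in WT_2, 5721 in WT_1 and 5073 in TRKC+/-, a log2 ratio of the sums to WT_2 of -0.22 (interval -0.27 to -0.16). AdNTF3-Tg was the lowest of the 3 libraries for 18 of the 26, beside 34% of all genes. By the cutoff, 4 genes were lower past the cutoff, all with an interval below 0, and 1 was higher, beside 7.1%, 2.66% and 6.21% of all genes. Well-known markers were read in each library: *Csf1r*, the receptor that macrophages need to survive, had 11.9 FPKM in AdNTF3-Tg, 10.7 in WT_2 and 12.97 in WT_1, and *Cd68*, a lysosomal protein, had 10.03, 10.7 and 11.4 FPKM in the same order. *Csf1r* lay between the WT libraries, and *Cd68* was lowest in AdNTF3-Tg. *Lyz2*, lysozyme of myeloid cells, had 83.7 FPKM in AdNTF3-Tg, 122 in WT_2, 125 in WT_1 and 87.5 in TRKC+/-, with a ratio to WT_2 of -0.54 (interval -0.68 to -0.41). *Lyz2* was thus below both WT libraries in AdNTF3-Tg and in TRKC+/- alike. *Cd14*, a receptor for bacterial lipopolysaccharide, had 33 reads in AdNTF3-Tg, 57 in WT_2, 48 in WT_1 and 23 in TRKC+/-. The part that the number of macrophages has in the class II values was not tested. Summed reads of 8 lymphocyte and thymocyte genes were few, at 116 in AdNTF3-Tg, 112 in WT_2, 115 in WT_1 and 101 in TRKC+/-, and 1 gene was higher and 2 lower past the cutoff, each with an interval that spanned 0.

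Some further genes known from leukocytes, singled out here by their values and not as a list, were lower in AdNTF3-Tg than in both WT libraries. *Irf8*, a transcription factor of monocytes and dendritic cells, had 26 reads in AdNTF3-Tg against 56 in WT_2, 54 in WT_1 and 63 in TRKC+/-, a log2 ratio to WT_2 of -1.03 (interval -1.83 to -0.40). *Fyb*, an adaptor of T cells and myeloid cells, had 16 reads in AdNTF3-Tg, 47 in WT_2, 44 in WT_1 and 40 in TRKC+/-, with a ratio of -1.41 (-2.47 to -0.70). In both, 3 libraries lay together and AdNTF3-Tg stood below. *Ncf4*, a subunit of the phagocyte oxidase, had 9 reads in AdNTF3-Tg and 8 in TRKC+/-, against 22 in WT_2 and 21 in WT_1. *Folr2*, a folate receptor of resident macrophages, had 19 reads in AdNTF3-Tg, 44 in WT_2, 36 in WT_1 and 24 in TRKC+/-, and *Cd209c*, a lectin of the DC-SIGN family, had 18, 36, 41 and 23 reads. For these last 3 genes TRKC+/- was low as well. *AB124611*, with 14 reads in AdNTF3-Tg, 37 in WT_2 and 35 in WT_1, was among the 8 genes furthest below both WT libraries.

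**Figure D3:**
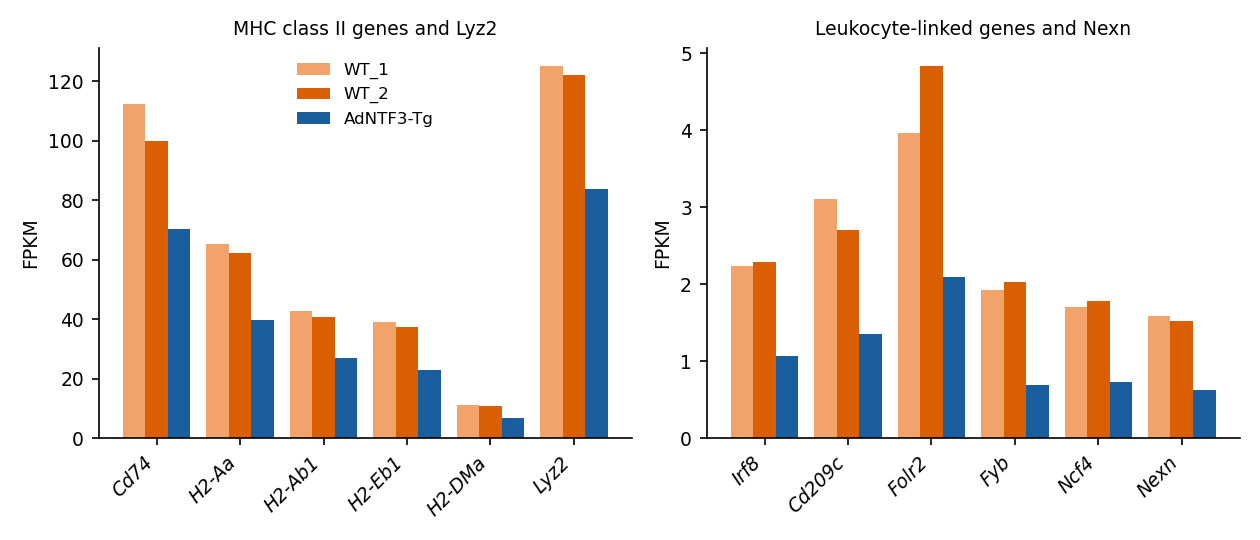
FPKM in WT_1, WT_2 and AdNTF3-Tg, 1 bar per library and no error bar since each is a single pool, for *Cd74*, *H2-Aa*, *H2-Ab1*, *H2-Eb1*, *H2-DMa* and *Lyz2* (left) and for *Irf8*, *Cd209c*, *Folr2*, *Fyb*, *Ncf4* and *Nexn* (right). AdNTF3-Tg is the lowest bar of every gene, at 70.4 FPKM for *Cd74* against 99.96 and 112 and at 1.07 for *Irf8* against 2.29 and 2.24.

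Interferon-stimulated genes, which cells switch on after interferon or viral nucleic acid and which hold much of the antiviral response, were lower than in WT_2 as a list. Of 64, 25 were lower past the cutoff and 0 higher, 19 of the 25 with an interval below 0, beside 7.1% lower and 2.66% with an interval over all genes. The ratio to WT_2 was below 0 for 56 of the 64. Their median log2 ratio was -0.38 to WT_2 but -0.11 to WT_1, and the WT libraries differed by -0.22 from each other. The 25 therefore split: 8 were also lower in WT_1 than in WT_2, and 8 lay below both WT libraries, 4 of these with both intervals below 0. Over all genes these shares were 2.52%, 3.58% and 0.786%. The list shares 3 genes with antigen presentation and 1 with chemokines.

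The genes below both WT libraries included well measured ones. *Isg15*, a ubiquitin-like protein attached to viral and host proteins, had 69 reads (11.4 FPKM) in AdNTF3-Tg, 130 (21.4 FPKM) in WT_2, 119 (19.4 FPKM) in WT_1 and 144 (23.3 FPKM) in TRKC+/-. *Ifit3*, an antiviral protein whose reads are shared in part with *Ifit3b*, had 12.9 FPKM in AdNTF3-Tg, 24.2 in WT_2, 19.1 in WT_1 and 24.9 in TRKC+/-. *Irf7*, the factor that amplifies interferon production, had 64 reads in AdNTF3-Tg, 113 in WT_2, 93 in WT_1 and 117 in TRKC+/-. AdNTF3-Tg was the lowest of 4 libraries for all 3. The log2 ratio to WT_2 was -0.90 for *Isg15* (interval -1.35 to -0.47), -0.90 for *Ifit3* (-1.15 to -0.67) and -0.80 for *Irf7* (-1.28 to -0.36), and the ratio to WT_1 was -0.76, -0.56 and -0.53. *Tgtp1*, an interferon-induced GTPase with paralogs that share its reads, had 2.61 reads in AdNTF3-Tg, 23.1 in WT_2 and 14.1 in WT_1.

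Other members were past the cutoff beside WT_2 and not beside WT_1. *Mx1*, a GTPase that blocks influenza virus, had 23 reads in AdNTF3-Tg, 55 in WT_2, 16 in WT_1 and 41 in TRKC+/-, so that AdNTF3-Tg lay between the 2 WT libraries. *Zbp1*, a sensor of nucleic acid, had 55 reads in AdNTF3-Tg, 101 in WT_2, 51 in WT_1 and 73 in TRKC+/-. *Rtp4*, which is induced by type I interferon, had 43, 99, 57 and 77 reads. The gap between the WT libraries was wider than that between AdNTF3-Tg and WT_2 for *Mx1* and *Zbp1* and narrower for *Rtp4*: the log2 ratio of WT_1 to WT_2 was -1.60 for *Mx1*, -1.20 for *Zbp1* and -0.77 for *Rtp4*, and that of AdNTF3-Tg to WT_2 was -1.16, -0.95 and -1.17. *Ifit1*, an antiviral protein of the family of *Ifit3*, did not differ past the cutoff, at 13.8 FPKM in AdNTF3-Tg, 14.1 in WT_2 and 12.8 in WT_1.

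Promoter letters of 3 of these genes are shown, 2 that lay below both WT libraries and 1 that separated the WT libraries, because the interferon-stimulated response element (ISRE), where IRF factors bind, is the sequence the list is known to share. The 250 bases before the start are again from RefSeq on GRCm38.p6, on the gene's strand, and the capitals mark matches on either strand to the ISRE core, which is GAAA, any 2 bases, and GAAA again. *Isg15* (chr4:156200819-156201068, minus strand) held 3 overlapping matches, between 78 and 66 bases before the start. *Ifit3* (chr19:34583279-34583528, plus strand) held 2, at 156 and 122 bases, and *Cxcl10* (chr5:92348890-92349139, minus strand) held 1, at 213 bases.
Isg15: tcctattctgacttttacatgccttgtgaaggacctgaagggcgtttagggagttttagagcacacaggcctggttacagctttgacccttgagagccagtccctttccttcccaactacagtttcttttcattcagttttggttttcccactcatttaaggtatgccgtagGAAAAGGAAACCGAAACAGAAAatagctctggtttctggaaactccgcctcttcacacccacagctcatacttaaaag
Ifit3: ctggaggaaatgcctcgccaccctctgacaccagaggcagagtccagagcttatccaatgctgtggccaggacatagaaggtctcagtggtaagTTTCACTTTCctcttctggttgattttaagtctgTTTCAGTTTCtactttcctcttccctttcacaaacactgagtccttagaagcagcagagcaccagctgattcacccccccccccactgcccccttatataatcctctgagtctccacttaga
Cxcl10: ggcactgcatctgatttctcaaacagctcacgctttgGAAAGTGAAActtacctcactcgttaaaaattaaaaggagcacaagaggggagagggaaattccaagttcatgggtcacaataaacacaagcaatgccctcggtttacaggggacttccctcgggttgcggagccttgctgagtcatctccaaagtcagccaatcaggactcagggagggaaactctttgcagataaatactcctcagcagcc
The core was in the promoter window of 25 of the 47 interferon-stimulated genes with one (53.2%) and of 3.77% of the 12035 genes.

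Chemokines and targets of NF-kappaB, the factor of inflammatory signals, were lower than in WT_2 for 13 of 31 genes and higher for 0, with an interval below 0 for 8, beside 7.1% and 2.66% of all genes. Of the 13, 6 were also lower in WT_1 than in WT_2, beside 2.52% of all genes. Below both WT libraries lay 4, beside 3.58%, and 1 of these 4 had both intervals below 0, beside 0.786%. That gene was *Cxcl14*, a chemokine made in many tissues without inflammation, with 80 reads in AdNTF3-Tg, 127 in WT_2, 128 in WT_1 and 111 in TRKC+/-, a log2 ratio to WT_2 of -0.65 (interval -1.08 to -0.25). *Cxcl10*, a chemokine induced by interferon-gamma, had 14 reads in AdNTF3-Tg, 47 in WT_2, 10 in WT_1 and 48 in TRKC+/-. *Ccl2*, which draws monocytes, had 31, 74, 33 and 39 reads in the same order. *Bcl3*, a partner of NF-kappaB, had 47 reads in AdNTF3-Tg, 92 in WT_2, 45 in WT_1 and 79 in TRKC+/-. For all 3, AdNTF3-Tg and WT_1 lay together and WT_2 stood above, with a ratio of WT_1 to WT_2 of -2.13 for *Cxcl10*, -1.16 for *Ccl2* and -0.995 for *Bcl3*. *Ccl5*, a chemokine of T cells, had 1 read in AdNTF3-Tg against 13 in WT_2 and 6 in WT_1, and its interval to WT_2 ran from -9.10 to -0.96. *Il1b*, the inflammatory cytokine, had 4 reads in AdNTF3-Tg, 18 in WT_2 and 4 in WT_1.

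WT_2 was the high library for further genes too, some of them inflammatory. *Saa3*, *Map4k1* and *Pex11g* were named by the rule for genes far from WT_2 on the side of WT_1. *Timp1* was named after its values were seen, so the place of WT_2 was set by how the genes were picked. *Saa3*, an acute-phase protein, had 14 reads in AdNTF3-Tg, 44 in WT_2, 17 in WT_1 and 14 in TRKC+/-. *Timp1*, an inhibitor of matrix proteases that rises with injury and cytokines, had 97, 179, 85 and 98 reads in the same order. In both, 3 libraries lay together and WT_2 alone stood above. *Map4k1*, a kinase of blood cells, with 14 reads in AdNTF3-Tg, 35 in WT_2 and 12 in WT_1, and *Pex11g*, a peroxisome protein, with 11, 26 and 9 reads, were likewise near WT_1 and below WT_2.

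Among genes listed in all 4 libraries the 4 largest ratios to WT_2 were of skeletal muscle genes, *Tnni2*, *Atp2a1*, *Tnnt3* and *Myh4*, and the same genes separated the WT libraries more widely still. Over 34 muscle genes the summed reads were 1327 in AdNTF3-Tg, 736 in WT_2, 2924 in WT_1 and 1681 in TRKC+/-. Against WT_2, 17 were higher past the cutoff and 1 lower, 13 of the 17 with an interval above 0, beside 6.21% and 2.39% of all genes. All 17 were also past the cutoff in WT_1 against WT_2, and 0 lay above both WT libraries, beside 3.2% and 2.12% of all genes. The median log2 ratio was 0.46 to WT_2 and -0.95 to WT_1, and 1.26 between WT_1 and WT_2.

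Most single muscle genes named here lay between the WT libraries in AdNTF3-Tg, with *Actn2* and *Klhl41* as exceptions. *Acta1*, skeletal alpha-actin, had 97 reads (7.79 FPKM) in AdNTF3-Tg, 14 (1.12 FPKM) in WT_2, 262 (21.1 FPKM) in WT_1 and 129 (10.2 FPKM) in TRKC+/-. *Atp2a1*, the calcium pump of fast fibres, had 68 reads in AdNTF3-Tg, 1 in WT_2, 245 in WT_1 and 97 in TRKC+/-. *Tnni2*, fast troponin I, had 29, 1, 73 and 17 reads. In each of these AdNTF3-Tg was above WT_2 and below WT_1, and TRKC+/- was above AdNTF3-Tg for *Acta1* and *Atp2a1* and below it for *Tnni2*. The log2 ratio to WT_2 was 2.69 for *Acta1* (interval 1.98 to 3.72), 4.18 for *Atp2a1* (3.57 to 11.42) and 4.27 for *Tnni2* (2.27 to 10.22), and the ratio to WT_1 was -1.43, -1.82 and -1.29. *Tnnt3*, fast troponin T, had 52 reads in AdNTF3-Tg, 3 in WT_2 and 149 in WT_1. *Myh4*, a fast myosin heavy chain, had 120, 4 and 300 reads, and *Ckm*, muscle creatine kinase, had 58, 7 and 138. *Myh1*, another fast myosin, had 20.4 reads in AdNTF3-Tg and 123 in WT_1 and was not listed in WT_2. *Actn2*, an actinin of muscle, was level, at 18 reads in AdNTF3-Tg, 20 in WT_2 and 20 in WT_1, and *Klhl41*, a muscle protein whose counts were fractional, was the 1 lower gene, at 16.5, 27.3 and 60.6 reads.

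**Figure D4:**
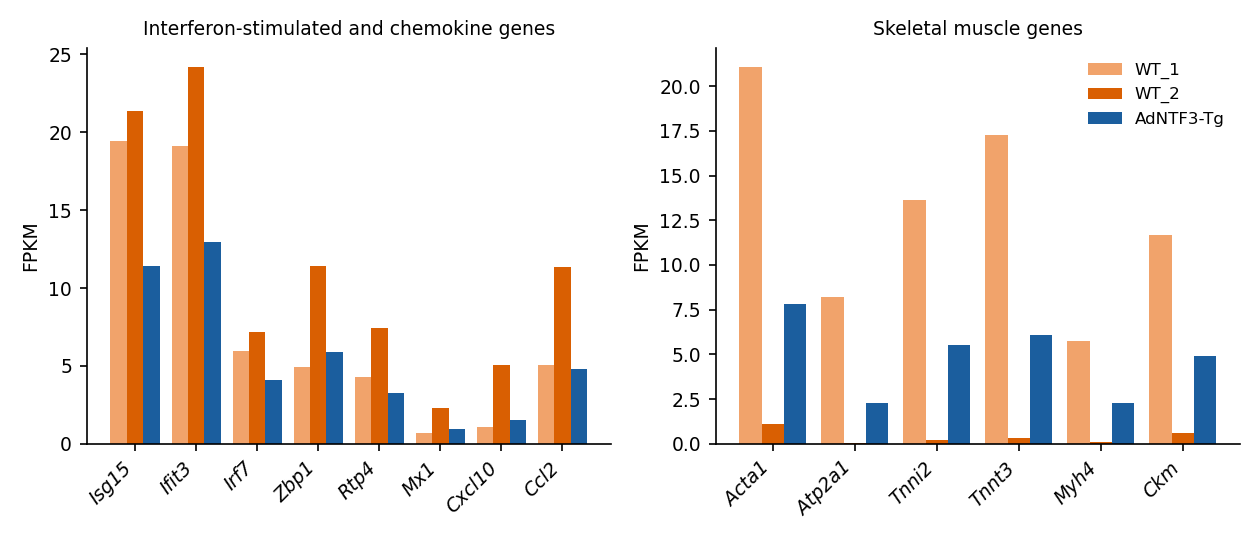
FPKM in WT_1, WT_2 and AdNTF3-Tg, 1 bar per library with no error bar, for 8 interferon-stimulated and chemokine genes (left) and 6 skeletal muscle genes (right). AdNTF3-Tg is lowest for *Isg15*, *Ifit3* and *Irf7*, near WT_1 for *Zbp1* (5.89 and 4.92 FPKM, against 11.4 in WT_2), and between WT_2 and WT_1 for every muscle gene, such as *Acta1* at 7.79 FPKM between 1.12 and 21.1.

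The genes that the study's text on RNA-seq names were chosen by the study on these libraries, so their direction is not independent evidence. Of 22, 21 were listed in all 4 libraries, 13 were higher than in WT_2 and 6 lower, each with an interval on 1 side of 0, beside 2.39% and 2.66% of all genes. None of these 19 lay beyond both WT libraries. In the same direction, 11 of the 13 and all 6 of the 6 also separated WT_1 from WT_2, beside 3.2% and 2.52% of all genes. Among all genes past the cutoff against WT_2 with an interval on 1 side of 0, the shares were 47.1% and 35.4%. The study kept genes that changed in opposite directions in AdNTF3-Tg and TRKC+/-, each against its WT. Such a choice favours genes that separate the WT libraries, so these counts are partly set by it. The list shares 7 genes with the skeletal muscle list. Its median log2 ratio was 0.57 to WT_2, -0.05 to WT_1 and 0.58 between WT_1 and WT_2. Some genes of the list were also measured by the study with RT-PCR, on several samples per group. It reports *Cxcl10* among those lower in the transgenic ganglia and higher in TRKC+/- ganglia than in WT. Those measurements are separate from the libraries compared here.

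Voltage-gated channel genes had a median slightly above both WT libraries, as did several other neuronal lists. Of 47 voltage-gated channel genes, 5 were higher past the cutoff, all with an interval above 0, and 1 was lower, beside 6.21%, 2.39% and 7.1% of all genes. The median log2 ratio was 0.12 to WT_2 and 0.06 to WT_1, beside 0.11 and 0.30 for sensory neuron genes, 0.06 and 0.05 for synaptic release and 0.10 and 0.12 for immediate early genes. For channel genes the interval lay above 0 for 16 genes and below 0 for 0, beside 10.8% and 9.97% of all genes. Among the 3851 genes with at least 500 reads in each library it lay above 0 for 710 and below 0 for 627. *Hcn4*, a pacemaker channel opened by hyperpolarisation, had 245 reads (7.45 FPKM) in AdNTF3-Tg, 151 (4.57 FPKM) in WT_2, 178 (5.47 FPKM) in WT_1 and 207 (6.21 FPKM) in TRKC+/-, a ratio to WT_2 of 0.69 (interval 0.41 to 1.01) and to WT_1 of 0.44. *Kcnd3*, an A-type potassium channel, had 190 reads in AdNTF3-Tg, 131 in WT_2, 138 in WT_1 and 156 in TRKC+/-. AdNTF3-Tg was the highest of the 4 libraries for both. *Cacna1b*, the N-type calcium channel of nerve endings, had 1402 reads in AdNTF3-Tg, 1172 in WT_2 and 1182 in WT_1, a ratio to WT_2 of 0.27 (0.15 to 0.38). These transcripts are long, and long genes were higher in AdNTF3-Tg in general, as given below.

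Of 25 neuropeptide and granin genes 5 were higher past the cutoff and 0 lower, 2 with an interval above 0, beside 6.21% and 2.39% of all genes. *Calca*, which encodes CGRP, had 52 reads in AdNTF3-Tg, 26 in WT_2, 35 in WT_1 and 23 in TRKC+/-, a log2 ratio to WT_2 of 0.96 (interval 0.30 to 1.75) and to WT_1 of 0.56 (-0.10 to 1.21). *Tac1*, which encodes substance P, had 103, 68, 78 and 37 reads in the same order. AdNTF3-Tg was the highest library for both, and both are also peptides of sensory neurons, whose list of 14 genes had 4 higher and 2 lower and a median of 0.11. *Vip*, a peptide of cholinergic sympathetic neurons, lay between the WT libraries, at 70.1 FPKM in AdNTF3-Tg, 86.8 in WT_2 and 51.9 in WT_1.

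Axon growth and cytoskeleton genes had few members past the cutoff. Of 47 axon growth and regeneration genes, 0 were higher and 4 lower past the cutoff, a share near the 7.1% of all genes, and 3 had an interval below 0, beside 2.66%. The median was -0.07. At any size, 19 had an interval below 0 and 8 above, beside 9.97% and 10.8% of all genes. An interval excludes 0 more readily in deeply read genes. Of the 3851 genes with at least 500 reads in each library, 627 had it below 0 and 710 above. *Gap43*, a protein of growing axon ends, had 360 FPKM in AdNTF3-Tg, 372 in WT_2 and 379 in WT_1, and *Stmn2*, which regulates microtubules, had 905, 949 and 943. *Marcksl1*, an actin regulator, had 192 reads in AdNTF3-Tg, 305 in WT_2, 233 in WT_1 and 252 in TRKC+/-, a ratio to WT_2 of -0.66 (interval -0.93 to -0.40). *Dcx*, a microtubule protein of young neurons, with 27 reads in AdNTF3-Tg, 46 in WT_2 and 42 in WT_1, was the 1 gene of the list below both WT libraries. Of 41 axon guidance genes 1 was higher and 2 lower, beside 6.21% and 7.1% of all genes. Among 38 microtubule and motor genes, 33 non-muscle actin and myosin genes, 37 genes of synaptic release and 12 nicotinic and muscarinic receptor genes, 0 were past the cutoff. Within these lists, *Map1a*, a microtubule-associated protein, had 117 FPKM in AdNTF3-Tg, 97.8 in WT_2 and 91.2 in WT_1, and *Nefm*, a neurofilament subunit, had 163, 138 and 124.

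Genes of the Trk signal itself differed in few cases. Of 44 Trk adaptors and effectors 2 were higher past the cutoff, both with an interval above 0, and 0 lower, beside 6.21%, 2.39% and 7.1% of all genes, and 0 lay above both WT libraries. *Cbl*, a ubiquitin ligase that ends receptor kinase signals, had 171 reads in AdNTF3-Tg, 104 in WT_2, 144 in WT_1 and 85 in TRKC+/-. *Sh2b2*, an adaptor of Trk receptors, had 55, 30, 45 and 32 reads. *Frs2*, the adaptor that links Trk receptors to ERK, had 557 reads in AdNTF3-Tg, 441 in WT_2 and 435 in WT_1, a ratio of 0.34 to each, under the cutoff with intervals above 0. Of 19 feedback genes that ERK switches on, 1 was past the cutoff: *Etv4*, an ETS factor, had 5 reads in AdNTF3-Tg and 18 in each other library, a ratio to WT_2 of -1.51 (interval -3.63 to -0.36). Its relative *Etv5* had 12.96 FPKM in AdNTF3-Tg, 15.4 in WT_2 and 14.97 in WT_1. The immediate early gene *Fos*, a marker of recent neuronal activity, had 508 reads in AdNTF3-Tg, 510 in WT_2, 323 in WT_1 and 423 in TRKC+/-, so that it was level with WT_2 and higher than WT_1 by 0.64 on the log2 scale. *Junb* had 159 reads in AdNTF3-Tg, 241 in WT_2 and 163 in WT_1. Of 30 immediate early genes 1 was higher and 1 lower.

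Of the fat cell genes 0 were higher past the cutoff and a few were lower. Over 28 general adipocyte genes the summed reads were 24167 in AdNTF3-Tg, 23209 in WT_2, 25962 in WT_1 and 23805 in TRKC+/-. By reads AdNTF3-Tg lay between the WT libraries. By summed FPKM it lay below both, at 831 against 874 in WT_2 and 1035 in WT_1, with 823 in TRKC+/-. Of AdNTF3-Tg, WT_1 and WT_2, AdNTF3-Tg was the lowest for 16 of the 28, beside 34% of all genes. The ratio to WT_2 was below 0 for 16 of the 28, with a median of -0.08, and the median to WT_1 was -0.28. Over 17 brown adipocyte genes the sums were 3462, 3767, 3900 and 2828 reads in the same order, and the ratio was below 0 for 9 of the 17, with a median of -0.02. *Ucp1*, the uncoupling protein of brown adipocytes, was read in all 4 libraries, at 37.8 FPKM in AdNTF3-Tg, 48.1 in WT_2, 47.3 in WT_1 and 7.80 in TRKC+/-, and the ratio of AdNTF3-Tg to WT_2 was -0.35 (interval -0.52 to -0.18). *Fabp4*, a fatty acid carrier of adipocytes, had 173 FPKM in AdNTF3-Tg, 225 in WT_2, 244 in WT_1 and 134 in TRKC+/-. *Adipoq*, the gene whose promoter drives the transgene, had 71 reads in AdNTF3-Tg, 78 in WT_2, 144 in WT_1 and 94 in TRKC+/-. These 3 members were lower in AdNTF3-Tg than in both WT libraries, though the interval of *Adipoq* to WT_2 spanned 0 (-0.61 to 0.35). Of the general adipocyte genes 3 were lower past the cutoff, beside 7.1% of all genes, *Cd36* among them (205 reads in AdNTF3-Tg, 297 in WT_2 and 276 in WT_1), and of the brown adipocyte genes 2 were lower. All of these had an interval below 0. At any size, the interval lay below 0 for 8 general adipocyte genes and above 0 for 3. For brown adipocyte genes these counts were 5 and 0, beside 9.97% and 10.8% of all genes. Fat genes are counted here because fat surrounds the ganglia, and their part in other differences was not tested.

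Glia and connective tissue lay with or between the WT libraries. *Apoe*, abundant in satellite glia, had 1561 FPKM in AdNTF3-Tg, 1575 in WT_2 and 1721 in WT_1, and of 23 satellite glia genes 0 were past the cutoff. *Fabp7*, another satellite glia gene, had 287 FPKM in AdNTF3-Tg, 211 in WT_2 and 342 in WT_1. *Col1a1*, type I collagen of fibroblasts, had 17.9, 16.5 and 22.8 FPKM, and of 30 fibroblast genes 2 were higher and 1 lower, beside 6.21% and 7.1% of all genes. Among the 22 endothelial genes 1 was higher and 1 lower, with intervals that spanned 0, and among 19 smooth muscle and pericyte genes 3 were higher, with intervals that spanned 0. *Hba-a1*, a haemoglobin chain whose reads are shared with its duplicate, had 140 reads in AdNTF3-Tg, 99.2 in WT_2 and 316 in WT_1. *Kit*, a receptor of mast cells among others, had 168 reads in AdNTF3-Tg, 115 in WT_2 and 172 in WT_1.

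Short transcripts were lower in AdNTF3-Tg in the median, and these included the ribosomal protein genes. All 79 cytosolic ribosomal protein genes were lowest in AdNTF3-Tg among the 3 libraries, beside 34% of all genes, 70 had an interval to WT_2 below 0, beside 9.97%, and none was past the cutoff, with a median log2 ratio of -0.19 to WT_2 and -0.30 to WT_1. In TRKC+/- their median to WT_1 was below 0 as well, at -0.18. *Rpl29* had 214 FPKM in AdNTF3-Tg, 276 in WT_2, 277 in WT_1 and 245 in TRKC+/-. *Rps25* had 202, 255, 288 and 229 FPKM. *Rpl3* and *Rpl4*, of the large subunit, differed less, with ratios to WT_2 of -0.14 and -0.10. Of 71 nuclear genes for oxidative phosphorylation, 66 were lowest in AdNTF3-Tg and 42 had an interval below 0, with a median of -0.15 to WT_2 and -0.25 to WT_1, and of -0.15 for TRKC+/- to WT_1. Depth narrows these intervals: of the 3851 genes with at least 500 reads in each library, 627 had an interval to WT_2 below 0. *Uqcrb*, a subunit of complex III, had 138 FPKM in AdNTF3-Tg, 186 in WT_2, 172 in WT_1 and 141 in TRKC+/-, and *Atp5e*, a subunit of the ATP synthase, had 196, 249, 273 and 242.

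The same direction ran along gene length over all genes. In the quintile of genes with the shortest length (157 to 1602 bases, from reads and FPKM) the median log2 ratio was -0.10 to WT_2 and -0.16 to WT_1, and in the longest quintile (from 4594 bases) it was 0.09 and 0.10, while between the WT libraries it was 0.04 in the shortest and -0.00 in the longest. For TRKC+/- to WT_1 it was -0.06 in the shortest and 0.02 in the longest. The share of genes past the cutoff followed, with 12.9% lower and 8.17% higher in the shortest quintile and 2.68% lower and 4.48% higher in the longest. With a quadratic trend on log2 length removed, the median of the ribosomal protein genes was -0.07 to WT_2. The same step left that of oxidative phosphorylation at -0.03, antigen presentation at -0.44, interferon-stimulated genes at -0.36, chemokines at -0.32 and voltage-gated channels at 0.06.

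**Figure D5:**
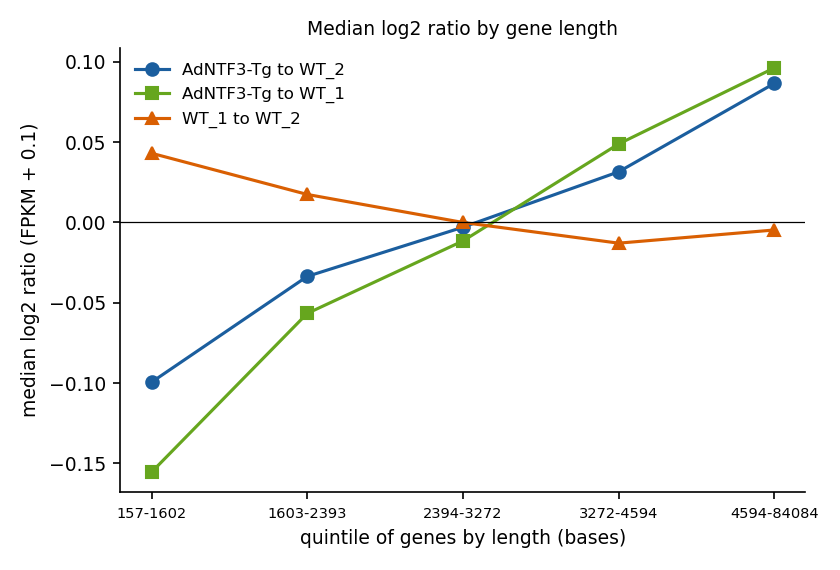
Median log2 ratio (FPKM + 0.1) of the genes in each quintile of gene length, shortest at the left, for AdNTF3-Tg to WT_2 (circles), AdNTF3-Tg to WT_1 (squares) and WT_1 to WT_2 (triangles). Both lines of AdNTF3-Tg climb from the shortest quintile (-0.10 and -0.16) to the longest (0.09 and 0.10), and the WT line stays between -0.01 and 0.04.

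Genes with the largest ratios to both WT libraries were mostly low or shared reads with relatives. *Mamdc2*, a secreted protein of the extracellular matrix, had 62 reads (2.15 FPKM) in AdNTF3-Tg, 16 in WT_2, 9 in WT_1 and 26 in TRKC+/-, a log2 ratio of 1.79 to WT_2 (interval 1.15 to 2.85) and 2.42 to WT_1. *Mad2l1*, a protein of the spindle checkpoint, had 59 reads in AdNTF3-Tg, 31 in WT_2, 30 in WT_1 and 27 in TRKC+/-. Both had whole counts. The WT libraries lay close together for *Mad2l1*, while for *Mamdc2* WT_1 was past the cutoff below WT_2. *Gm12191* (92.3 reads in AdNTF3-Tg, 6.72 in WT_2 and 1.48 in WT_1), *4930555G01Rik*, *Mterf1b* (38.6, 16.3 and 14.1) and *Zxdb* (146, 68.1 and 77.7) had fractional counts, which divide reads between near-identical copies, and are uncertain. *E130114P18Rik* (23 reads in AdNTF3-Tg, 9 in WT_2 and 11 in WT_1) and *Ppifos* (22, 9 and 11) were low. Of the 8 furthest below both WT libraries, *Npcd* also had fractional counts (189 reads in AdNTF3-Tg, 488 in WT_2, 422 in WT_1 and 138 in TRKC+/-). *L3hypdh*, a hydroxyproline dehydratase, had 6 reads in AdNTF3-Tg, 27 in WT_2 and 18 in WT_1, and *Nexn*, an actin-binding protein of muscle and endothelium, had 14, 34 and 35. *B330016D10Rik* (9, 33 and 28 reads) and *2310030G06Rik* (11, 31 and 25) completed them with *Fyb*, *AB124611* and *Ncf4*.

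Among the deeply read genes, *Gda*, guanine deaminase of purine breakdown, stood out above both WT libraries, with 97.0 FPKM (4577 reads) in AdNTF3-Tg, 68.5 in WT_2, 63.3 in WT_1 and 64.8 in TRKC+/-. Its log2 ratio was 0.50 to WT_2 (interval 0.44 to 0.57) and 0.61 to WT_1, and -0.11 between WT_1 and WT_2. The next were *Rab11fip4*, a partner of the recycling GTPase Rab11 (864 reads in AdNTF3-Tg, 632 in WT_2 and 713 in WT_1), *Dmd*, dystrophin (923, 677 and 783), *Fabp7*, and *Per1*. Of these, *Fabp7* had 1752, 1295 and 2109 reads and was between the WT libraries. At the lower end, after *Lyz2* and *Cd74*, were *Uqcrb*, *Ndufv3*, a subunit of complex I (640 reads in AdNTF3-Tg, 789 in WT_2 and 918 in WT_1), and *H2-Q4*, a class I gene with paralogs that share its reads (570, 766 and 761).

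Few clock genes were past the cutoff, while the metallothioneins *Mt1* and *Mt2* were both lower past it. *Per1*, a light- and glucocorticoid-responsive repressor of the clock, had 889 reads (21.9 FPKM) in AdNTF3-Tg, 670 in WT_2, 689 in WT_1 and 727 in TRKC+/-, a log2 ratio of 0.41 to WT_2 (interval 0.27 to 0.56) and 0.35 to WT_1. *Per2* had 181, 120, 141 and 186 reads, so that TRKC+/- was as high. Of 22 clock genes 2 were higher past the cutoff, *Per2* and *Hlf*, an output factor of the clock (68 reads in AdNTF3-Tg, 29 in WT_2 and 54 in WT_1), and 0 lower, beside 6.21% and 7.1% of all genes, and both had an interval above 0, beside 2.39%. *Nr1d1*, a repressor of the clock, had 25.7 FPKM in AdNTF3-Tg, 18.4 in WT_2 and 26.7 in WT_1, where WT_2 was the low library. *Mt1* and *Mt2*, metallothioneins that bind zinc and respond to glucocorticoids and metals, were lower than in both WT libraries. *Mt1* had 86.2 FPKM in AdNTF3-Tg, 128 in WT_2, 140 in WT_1 and 129 in TRKC+/-, a ratio of -0.58 to WT_2 (interval -0.77 to -0.39) and -0.70 to WT_1, and *Mt2* had 62.3, 92.2, 87.6 and 69.4 FPKM. *Cebpd*, a factor of the acute-phase and glucocorticoid response, had 20.5 FPKM in AdNTF3-Tg, 29.1 in WT_2 and 23.7 in WT_1. Of 25 glucocorticoid-responsive genes 2 were higher and 3 lower, the latter these 3, beside 6.21% and 7.1% of all genes.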

How the data were processed

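RNA of pooled SG was enriched with oligo(dT) and sequenced as single-end reads at BGI for the authors. The study's methods name SOAPnuke, HISAT2 and the build mm9, whereas the submitters' processing notes name RSEM and mm10, so the build of the counts is uncertain. Whether counting used strand is not given in the sources used here. For each gene, named by its Entrez identifier, the deposited tables of the authors hold an expected count, not normalized and not always whole because shared reads are divided, and an FPKM value. Between 92.6% and 93.7% of the counts per library were whole. Genes without reads were not listed. No column of the authors' own comparisons was used.

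Log2 ratios of the deposited FPKM were computed with a pseudocount of 0.1 and set against a cutoff of 0.5, the study's own. Counting intervals used expected counts rounded to whole numbers (SciPy 1.17.1). Gene length was derived from expected count and FPKM. Symbols for 17619 of 17667 identifiers (99.7%) and promoters came from RefSeq tables on GRCm38.p6, used for names and these letters only. The members and the gene lists were chosen with earlier results of these data known. Genes were named by a rule: among those with a mean of at least 1 FPKM, 30 reads in both libraries together and an interval on 1 side of 0, the 8 each way furthest beyond both WT libraries, the 5 each way furthest from WT_2 on the side of WT_1, the 5 each way with the largest ratio among genes with at least 500 reads in each library, and in each list up to 4 members with the largest ratio and the first 2 listed. *Ntf3* and *Ntrk3* were added by name. Some genes that the rule names are not reported here. Named outside the rule, after their values were seen, were *B2m*, *Bcl3*, *Cacna1b*, *Ccl2*, *Cd209c*, *Ckm*, *Cxcl14*, *Fhl2*, *Folr2*, *H2-Aa*, *H2-Ab1*, *H2-DMa*, *Ifit1*, *Ifit3*, *Irf7*, *Irf8*, *Isg15*, *Klhl41*, *Slc6a2*, *Timp1*, *Zbp1*, *Zxda*, *Gm10052*, *Gm38431*, *Gvin1*, *Tmem254a* and *Tmem254b*.

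Alternatives were other pseudocounts, filters, a centring, edgeR 4.0.16 TMM scaling (prior count 2), DESeq2 1.42.0 size factors, a cutoff of 1, other WT controls and, added after the data were seen, removal of the length trend. The steps were tested on simulated data.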

Additional observations from a re-analysis of the deposited data

How the results depend on the processing

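No paired analysis was possible because each group is 1 library and no label pairs mice or libraries. Removing 1 library from a side leaves none, so the check between WT pools took its place. Of 80 recomputed counts of genes 51 stayed within 1.5 times the reported value and 29 did not. With the order higher, lower, the same 2 with an interval, above and below both WT libraries, and above and below with WT_1 on that side, the counts were 235, 345, 172, 264, 45, 120, 105 and 88 with a pseudocount of 1 FPKM, and 274, 314, 122, 146, 58, 119, 117 and 72 with a cutoff of 1. Without the interval counts they were 396, 517, 90, 242, 186 and 139 once genes under a 4-library mean of 1 FPKM were dropped, and 1565, 1732, 700, 852, 782 and 778 with missing genes taken as 0. These 4 settings test or pass different numbers of low genes. Against the average of both WT libraries 613 genes were higher. The pseudocount of 0.01, the centring, the TMM and DESeq2 scalings, WT_1 as control and the removal of the length trend kept each count they gave within 1.5 times.

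The choice of WT library decided several directions. With WT_1, and then with the average of both WT libraries, in place of WT_2, the median of skeletal muscle was -0.95 and -0.37, of the genes named in the study's text -0.048 and -0.32, of fibroblast genes -0.081 and -0.035, and of red blood cell genes -0.088 and -0.039; that of mast cell genes was -0.12 with WT_1. With WT_1 the median was -0.11 for interferon-stimulated genes, -0.11 for chemokines, -0.26 for antigen presentation and -0.30 for ribosomal proteins. Antigen presentation was at -0.42 with the average and -0.41 with a pseudocount of 1, and ribosomal proteins at -0.071 with the length trend removed. Among single genes past the cutoff with an interval, the ratio changed sign with WT_1 and with the average for *Acta1* (-1.43 and -0.51), *Atp2a1* (-1.82 and -0.84), *Ckm* (-1.24 and -0.32), *Hba-a1* (-1.14 and -0.54), *Myh4* (-1.30 and -0.34), *Tnni2* (-1.29 and -0.32) and *Tnnt3* (-1.49 and -0.52). With WT_1 alone it did so for *Bcl3* (0.057), *Cxcl10* (0.45), *Kit* (-0.048), *Map4k1* (0.18), *Mx1* (0.43), *Pex11g* (0.27), *Pgm2* (0.33), *Timp1* (0.20) and *Zbp1* (0.25). Of 1150 values of 116 named genes, 1048 stayed inside the counting interval. Depth limits the low genes: the genes past the cutoff had a median of 27 reads when higher and 30 when lower.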

Other observations

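Lists of general cell upkeep lay close to WT_2. Among 25 heat shock and cold-inducible genes, 29 genes of the unfolded protein response and integrated stress, and 33 genes of sterol and fatty acid synthesis, 0 were past the cutoff, with medians of -0.01, 0.02 and 0.01. Of 31 glycolysis and glycogen genes 2 were lower, *Slc16a3*, a lactate transporter (208 reads in AdNTF3-Tg, 309 in WT_2 and 227 in WT_1), and *Pgm2*, a phosphoglucomutase (83, 128 and 65). Of 28 cell cycle genes 4 were higher and 3 lower, with a median of -0.07, and over all genes 6.21% were higher and 7.1% lower, against which the next counts of short lists also stand. Of 9 replication-dependent histone genes 1 was higher and 4 lower, of 15 nuclear-retained noncoding RNAs 1 was higher, of 9 cholinergic neuron genes 1 was higher, of 6 chromaffin genes 1 was higher, of 17 myelinating Schwann genes 3 were higher and 1 lower, and of 8 red blood cell genes 3 were higher.

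Copies that share reads gave some of the widest differences, with opposite signs in relatives. *Tmem254c* had 712 reads in AdNTF3-Tg, 66.5 in WT_2, 597 in WT_1 and 595 in TRKC+/-. *Tmem254b* was not listed in AdNTF3-Tg and had 639 reads in WT_2, 202 in WT_1 and 178 in TRKC+/-, so it was at least 212-fold lower than in WT_2 against a floor of 3 reads per library. *Tmem254a* had 50.3, 65.2, 50.7 and 59.7 reads in AdNTF3-Tg, WT_2, WT_1 and TRKC+/-. By the same floor *Gm10052* was at least 54.7-fold lower, and *Gm38431* and *Gvin1* at least 16.9-fold and 17.6-fold higher. *Gm38431* and *Gvin1* also had 39.8 and 31.8 reads in WT_1 and were not listed in WT_2, so they separated the WT libraries too, and *Gm10052* had 436 reads in WT_1 and 165 in WT_2. Over all genes listed in the 4 libraries, 1128 had a count that was not whole in AdNTF3-Tg or WT_2. *Zxda*, the near-copy of *Zxdb*, had 44.7 reads in AdNTF3-Tg, 54.9 in WT_2 and 38.2 in WT_1.

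Genes listed in 1 library of the pair and not in the other numbered 677 in WT_2 alone and 619 in AdNTF3-Tg alone. *Fhl2*, a LIM protein of muscle and other tissues, was another low gene below both WT libraries, with 13 reads in AdNTF3-Tg, 27 in WT_2, 28 in WT_1 and 24 in TRKC+/-.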
